A study of Mus musculus with 9 samples.

Results

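Transcripts of enzymes that burn fatty acids, and of the proteins that feed, control or assist them, were followed in cardiomyocytes of CD-1 mice at postnatal day 1 (P1), P14 and P56. The members were the genes of a list of 37 symbols found by symbol in a table of 15824 genes. Of the 37, 35 were found and all 35 were tested. The muscle isoform Cpt1b and the flavoprotein subunit Etfb were not analysed here. The study compared RNA of cardiomyocytes of the growing heart in 9 libraries, 3 at each age. The labels give no genotype, sex or treatment to any library, so age is the only labelled difference. Hearts were pooled for a sample (12 newborn hearts, or 6 to 7 at the later ages), and the series calls the libraries of an age biological triplicates. The protocols describe both isolation of whole myocytes, with mention of surgery, and sorting of nuclei that carry the cardiomyocyte marker Pcm1, and do not settle which applied to each library.

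Long-chain fatty acids are activated to acyl-CoA by synthetases, passed into mitochondria on carnitine by the CPT enzymes, and shortened in repeated rounds of dehydrogenation, hydration, dehydrogenation and thiolysis. The electrons of the first step pass through the electron transfer flavoprotein to the respiratory chain. Malonyl-CoA, made by acetyl-CoA carboxylase, blocks CPT1 and so slows entry, and malonyl-CoA decarboxylase removes it. Peroxisomes carry out a similar shortening of very long and branched chains with enzymes of their own. The heart is known to turn from glucose and lactate to fatty acids as its main fuel after birth.

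Promoters of 6 members are shown as examples, picked after the values had been seen and not as the 6 largest changes. Hadha and Hadhb are partners whose start sites lie close together on opposite strands, and Etfa and Etfdh are partners on the electron path. Acsm5 had the largest rise, and Ucp3 peaked at P14. RefSeq windows (GRCm38.p6) run from 250 bases before to 50 bases after a start site, 5′ to 3′ on the gene's strand. The Hadha and Hadhb start sites, at 30154980 and 30155253 on chromosome 5, lie head to head 273 bases apart. The 228 bases that their windows share are at chr5:30155003-30155230 on the plus strand. Acsm5 is at chr7:119526015-119526314 (plus strand), Ucp3 at chr7:100472741-100473040 (plus), Etfa at chr9:55512194-55512493 (minus) and Etfdh at chr3:79628718-79629017 (minus). The gene annotation used for the positions below puts the 5′ end of Acsm5 at 119519463 and that of Etfdh at 79629500. Both of these windows therefore lie inside the annotated genes, and which start site is used in these cells was not tested. Capitals mark matches on either strand to the CCAAT box, to the AGGTCA unit bound by nuclear receptors, or to the element of the respiratory factor NRF1.
Hadha and Hadhb shared window: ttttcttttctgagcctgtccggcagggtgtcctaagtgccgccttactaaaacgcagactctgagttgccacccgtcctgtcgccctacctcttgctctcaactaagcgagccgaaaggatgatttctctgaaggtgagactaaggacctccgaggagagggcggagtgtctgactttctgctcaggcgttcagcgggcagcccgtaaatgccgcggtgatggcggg
Acsm5: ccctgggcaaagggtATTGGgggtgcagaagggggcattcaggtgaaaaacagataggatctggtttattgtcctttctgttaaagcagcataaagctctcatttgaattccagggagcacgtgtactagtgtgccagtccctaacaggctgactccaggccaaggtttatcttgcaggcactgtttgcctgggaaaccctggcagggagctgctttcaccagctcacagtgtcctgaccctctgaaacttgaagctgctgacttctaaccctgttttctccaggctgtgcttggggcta
Ucp3: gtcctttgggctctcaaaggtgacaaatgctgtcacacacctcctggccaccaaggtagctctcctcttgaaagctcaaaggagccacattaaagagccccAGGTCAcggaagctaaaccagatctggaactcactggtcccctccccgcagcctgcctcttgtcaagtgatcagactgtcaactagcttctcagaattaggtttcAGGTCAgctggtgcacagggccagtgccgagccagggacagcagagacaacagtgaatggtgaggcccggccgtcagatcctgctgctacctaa
Etfa: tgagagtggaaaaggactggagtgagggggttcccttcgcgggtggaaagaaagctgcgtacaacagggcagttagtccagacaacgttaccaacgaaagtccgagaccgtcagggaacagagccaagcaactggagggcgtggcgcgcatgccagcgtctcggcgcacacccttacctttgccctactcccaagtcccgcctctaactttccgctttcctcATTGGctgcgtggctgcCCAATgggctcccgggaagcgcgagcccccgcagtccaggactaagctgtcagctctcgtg
Etfdh: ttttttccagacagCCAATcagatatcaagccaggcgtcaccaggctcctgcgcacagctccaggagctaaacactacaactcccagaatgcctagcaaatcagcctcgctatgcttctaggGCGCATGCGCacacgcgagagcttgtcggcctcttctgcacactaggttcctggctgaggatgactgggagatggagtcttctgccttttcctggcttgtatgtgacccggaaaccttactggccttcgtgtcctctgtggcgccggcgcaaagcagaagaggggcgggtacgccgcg

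The P1 libraries held 49190887 to 58538025 counts, the P14 libraries 36619799 to 38878181 and the P56 libraries 45866453 to 49535917. All 11 cardiomyocyte markers were in the table, with summed levels of 51560 to 91880 CPM (counts scaled to a common library size, with TMM factors) over the 9 libraries. In replicates 1, 2 and 3 these sums were 61480, 60330 and 51560 at P1, 60000, 77260 and 91880 at P14, and 55180, 76490 and 78870 at P56. Of 47 markers of other cell types, 43 were measured. From P1 to P14, 34 of them rose and 3 fell (28.4% and 27.5% of all genes), and from P14 to P56 none rose and 31 fell (27.5% and 28.5%). Over the span, P56 against P1, 10 rose and 12 fell (30.9% and 31.7%). Their mean log2 CPM, here the marker score, ranged over P1 libraries from 1.43 to 2.01, over P14 libraries from 2.60 to 3.85 and over P56 libraries from 0.75 to 1.81. The P14 scores lay above those of both other ages. In comparisons with P14, fits with the score as a covariate therefore cannot fully separate the score from age. Their values and lost calls are given as descriptions. Endothelial markers summed to 77.7 to 110 CPM at P1, 229 to 588 at P14, then 40.3 to 102 at P56, and fibroblast markers to 160 to 319, 224 to 823 and 52.9 to 105 CPM. Leukocyte markers, at 4.985 to 7.28, 12.1 to 39.9 and 10.0 to 21.6 CPM, stayed above their P1 range at P56. Of 7 adipocyte markers Cidea was in the table. P14 replicate 3 was the highest library of its age for 26 of 35 members (74.3%) and for 38.3% of all genes. P56 replicate 1 was likewise the highest for 26 members (74.3%) and for 38.8% of all genes, with a median ratio to the mean of the other two of 1.16 over members and 0.998 over all genes. Within their ages, P14 replicate 3 had the highest cardiomyocyte sum and the lowest marker score, and P56 replicate 1 the reverse. The part of these libraries and of the other cell types in the results was not tested beyond the values given below, and in such bulk libraries fewer cells of a type and less RNA per cell cannot be told apart.

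The list did not move one way with age. From P1 to P14, 16 of 35 members rose and 8 fell, where 28.4% of all 15817 genes tested rose and 27.5% fell (edgeR's quasi-likelihood test, Benjamini-Hochberg adjusted p under 0.05, n = 3 per age). From P14 to P56, 10 rose and 15 fell, where 27.5% and 28.5% of all genes did. Over the whole span, P56 against P1, 12 rose and 14 fell, where 30.9% and 31.7% did. In either direction, 24, 25 and 26 members were called, against 55.9%, 56% and 62.6% of all genes. A called change of at least 1 on the log2 scale was made upward by 3 members and downward by 3 from P1 to P14 (13.3% and 9.38% of all genes), by 3 and 3 from P14 to P56 (6.19% and 14.9%), and by 3 and 4 over the span (12.7% and 16.2%). The median fitted log2 change of the members was 0.14, −0.21 and −0.16 in the 3 comparisons, and that of all genes 0.00, −0.02 and −0.03. At least 1 age differed for 33 members, and for 78% of all genes. The exceptions were Decr1 and Decr2, which encode dienoyl-CoA reductases for unsaturated fatty acids. All 3 libraries of P14 lay above those of P1 for 16 members and below for 9, against 31% and 32.9% of all genes. For P56 against P14 the counts were 10 and 14, against 30.2% and 29.3%, and for P56 against P1 13 and 15, against 35% and 37.1%. The members together took 0.36 to 0.38% of all counts at P1, 0.34 to 0.37% at P14, then 0.30 to 0.37% at P56, ranges that overlap.

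The count of 16 rises from P1 to P14 became 10 without P1 replicate 1, 10 without P14 replicate 3 and 10 after the marker score was added as a covariate. Adding the marker score took the falls from P14 to P56 from 15 to 9 and the rises from 10 to 6. Calls made the same way in every setting tried numbered 14 of 24 for P14 against P1, 13 of 25 for P56 against P14 and 23 of 26 for P56 against P1.

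**Figure D1:**
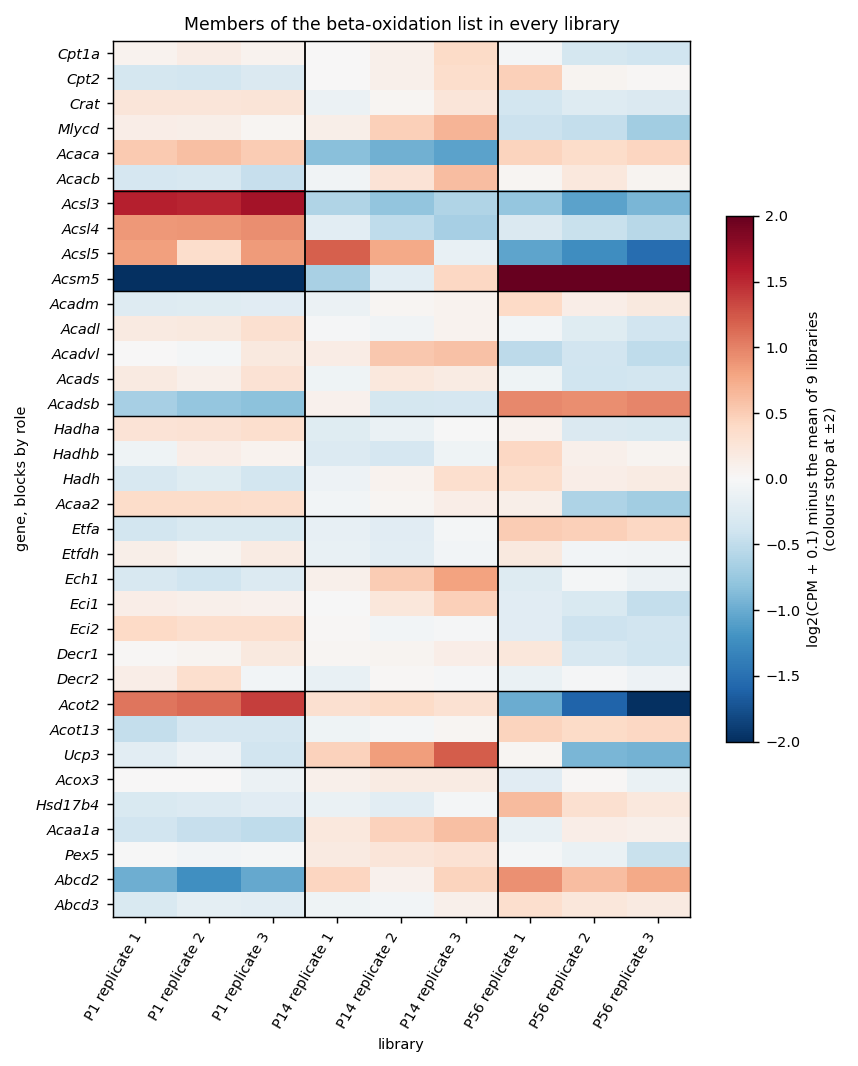
Each row is a member, in blocks by role, and each column a library; colour gives log2(CPM + 0.1) minus the mean of the 9 libraries, stopped at ±2. Acsm5 is low at P1 and high at P56, Acsl3 and Acsl4 are high at P1 alone, and Acaca is low at P14 alone.

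Per length of exon sequence, Etfa held the highest level of the members at every age, 141 ± 3.00, 161 ± 10.0 and 245 ± 7.70 CPM per kb at P1, P14 and P56 (mean ± SD, n = 3). Acadl, the long-chain acyl-CoA dehydrogenase, was next at 135 ± 7.35, 114 ± 5.89 and 98.5 ± 10.8 CPM per kb. At P1 these neighbours differed by less than their SDs together, and at P14 and P56 by more. Acsm5 was the lowest per kb at P1 and P14, and Acsl5 at P56. Ranks per kb assume that exon reads alone were counted, which the sources used do not state, so they are uncertain.

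Of the carnitine shuttle, Cpt1a fell and Cpt2 rose over the span. Cpt1a encodes an isoform of CPT1, the outer-membrane carnitine palmitoyltransferase at the control point of entry (chromosome 19, 3322334 to 3385733 on GRCm38). The muscle isoform Cpt1b was not analysed here, so the values of Cpt1a do not describe CPT1 as a whole. The level of Cpt1a was 196, 208 and 197 CPM in the P1 libraries, 189, 202 and 245 at P14, and 183, 147 and 142 at P56. The P56 libraries lay below all others. Cpt1a fell from P14 to P56 by 0.44 ± 0.11 on the log2 scale (edgeR adjusted p = 0.00916), a call lost when the marker score was added (−0.51, adjusted p = 0.101). Over the whole span it fell by 0.35 ± 0.11 (edgeR adjusted p = 0.0218). That call was lost without P1 replicate 2 (adjusted p = 0.0682), P56 replicate 2 (0.0777) or P56 replicate 3 (0.083). Cpt2, the inner-membrane partner, rose by 0.50 ± 0.13 from P1 to P14 and by 0.53 ± 0.13 over the span. The first of these was lost with the marker score (edgeR adjusted p = 0.102) and both with library totals in place of TMM scaling (0.0508 and 0.087). Crat, a carnitine acetyltransferase that buffers short acyl groups, fell by 0.36 ± 0.08 from P14 to P56 (−0.70 when the marker score was added) and by 0.55 ± 0.08 over the span.

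The transcripts of the enzymes that make and remove malonyl-CoA took different courses. Acaca, the cytosolic acetyl-CoA carboxylase of fat synthesis (chromosome 11, 84129672 to 84401651), had 71.1, 75.2 and 70.7 CPM at P1, 27.9, 25.6 and 23.6 at P14, and 67.4, 63.9 and 67.2 at P56. The P14 libraries stood apart from both other ages. The fall from P1 to P14 was −1.49 ± 0.07 (edgeR adjusted p = 2.55e-07) and the rise from P14 to P56 1.36 ± 0.07 (9.6e-07), and the call for P56 against P1 did not pass (0.124). Acacb, the carboxylase bound to the outer mitochondrial membrane (chromosome 5, 114146535 to 114250761), had 411, 415 and 374 CPM at P1, 491, 622 and 792 at P14, and 528, 597 and 538 at P56. Every later library lay above the P1 libraries, while P14 and P56 overlapped. Acacb rose by 0.67 ± 0.15 from P1 to P14 (edgeR adjusted p = 0.00327; 1.14 when the marker score was added). Over the span it rose by 0.47 ± 0.14 (edgeR adjusted p = 0.0167), a call lost without P1 replicate 3 (0.0616), without P56 replicate 2 (0.0591) and with library totals (0.0871).

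The ratio of Acacb to Acaca counts within a library, which tells of change between ages and not of relative amount, was 5.29 to 5.78 at P1, 17.6 to 33.6 at P14, then 7.84 to 9.34 at P56. No library of one age reached the range of another. Mlycd, the malonyl-CoA decarboxylase, had 43.5 to 46.5 CPM at P1, 45.9 to 67.7 at P14, then 26.1 to 31.3 at P56. Mlycd fell from P14 to P56 by 0.98 ± 0.13 and over the span by 0.63 ± 0.13 (edgeR adjusted p = 0.000188 and 0.00168). Its rise from P1 to P14 (0.35 ± 0.13, edgeR adjusted p = 0.0409) was lost in several settings. Without P14 replicate 3 it was 0.21 (adjusted p = 0.144), with library totals 0.20 (0.136), and with the marker score, which kept the call, 0.57. In the fit of the P1 and P14 libraries alone the adjusted p was 0.0504, and it also lost the call without any 1 of the P1 libraries, without P14 replicate 2 or without P56 replicate 2 (0.0564 to 0.116).

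The 4 acyl-CoA synthetases moved apart by large amounts, 3 falling and 1 rising over the span, where 31.7% and 30.9% of all genes did. Acsl3, the long-chain synthetase of the endoplasmic reticulum and lipid droplets (chromosome 1, 78657825 to 78707743), had 51.6, 50.6 and 55.2 CPM at P1, 11.5, 10.0 and 11.5 at P14, and 10.2, 8.24 and 9.25 at P56. The P1 libraries stood far above the rest. Acsl3 fell by 2.26 ± 0.10 from P1 to P14 (edgeR adjusted p = 1.53e-07) and by 2.51 ± 0.10 over the span (2.69e-08). A further fall from P14 to P56 (−0.25 ± 0.10, edgeR adjusted p = 0.046) was lost in most settings. These were the fit with the marker score (−0.09, adjusted p = 0.762), the fit of the P14 and P56 libraries alone (0.109), DESeq2 size factors (0.0535) and the fits without any 1 P1 library, P14 replicate 1 or 3, or P56 replicate 2 or 3 (0.0618 to 0.153).

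Acsl4, the synthetase that prefers arachidonic acid, also fell early, with 71.5, 72.3 and 75.3 CPM at P1, 33.9, 27.6 and 24.9 at P14, and 32.1, 28.7 and 26.8 at P56. Its changes were −1.34 ± 0.11 from P1 to P14 (edgeR adjusted p = 8.03e-06) and −1.32 ± 0.11 over the span (3.81e-06), and the P14 and P56 libraries overlapped. Acsl5, another long-chain synthetase, had 5.85, 4.19 and 5.96 CPM at P1, 7.64, 5.62 and 2.95 at P14, and 1.52, 1.33 and 1.07 at P56. The P56 libraries were the lowest. Its P14 libraries came in the order of their marker scores, 3.85, 3.33 and 2.60. The order was not particular to Acsl5. Acsl4 and Acaca shared it, and Acacb, Ech1, Ucp3, Mlycd, Cpt1a and others had the reverse order. From P1 to P14 Acsl5 changed by 0.02 (edgeR adjusted p = 0.959), and by −1.41 when the marker score was added (adjusted p = 0.00076). Acsl5 fell by 2.05 ± 0.33 from P14 to P56 (edgeR adjusted p = 0.000541), a change of −0.18 when the marker score was added (adjusted p = 0.719). Its fall over the span, 2.03 ± 0.32 (edgeR adjusted p = 0.000348), was 1.58 in size with the marker score and still passed (−1.58, adjusted p = 2.63e-06).

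Acsm5, a medium-chain synthetase of the mitochondrial matrix (chromosome 7, 119519463 to 119545551), was close to undetected at P1. It had 3, 0 and 3 counts in the P1 libraries, 27, 36 and 56 at P14, and 478, 565 and 683 at P56. In CPM these are 0.0474, 0 and 0.0540, then 0.690, 0.973 and 1.54, then 10.8, 13.0 and 15.2. Each age lay wholly above the one before. The fitted log2 changes were 4.83 ± 0.53 from P1 to P14 and 3.61 ± 0.30 from P14 to P56, and 8.43 ± 0.44 over the span (edgeR adjusted p = 5.27e-05, 1.26e-05 and 1.86e-07). The first and the last rest on 6 counts in all at P1. Despite this rise, Acsm5 ranked 29 of 35 members by CPM per kb at P56.

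**Figure D2:**
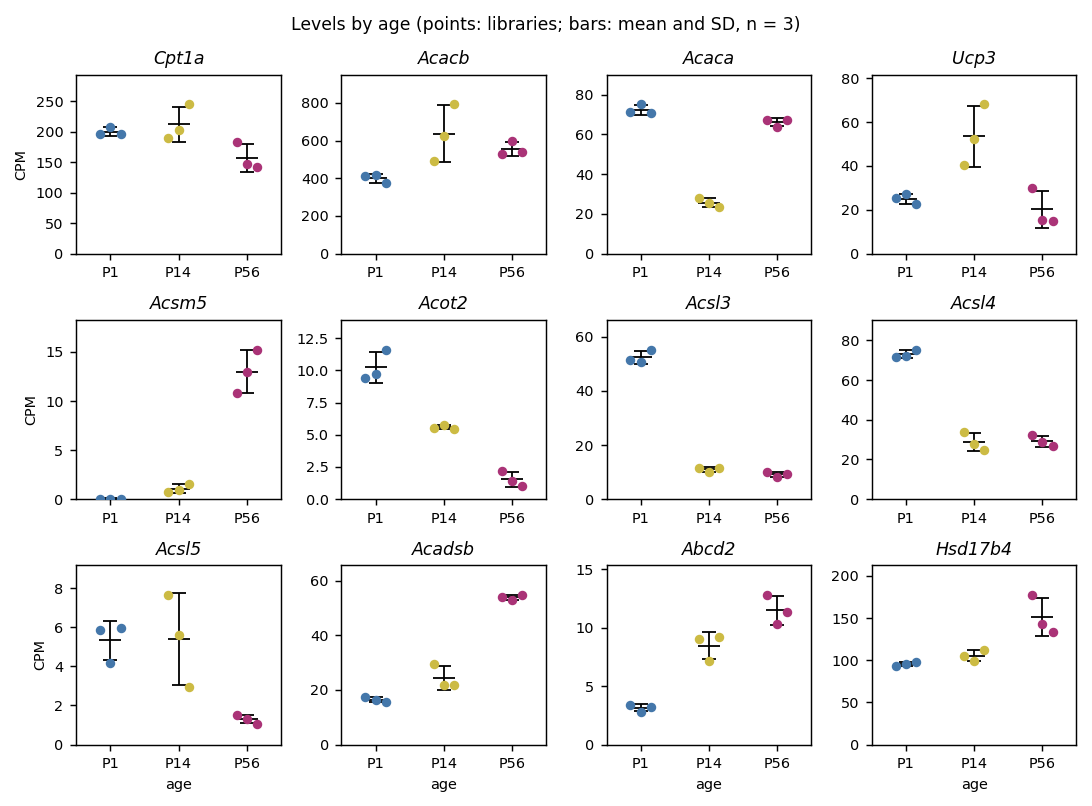
Points are the CPM of single libraries at P1, P14 and P56 for 12 members, with the mean and SD of 3 libraries as bars, on linear axes from 0. Acaca dips at P14, Ucp3 peaks there, Acsl3 and Acsl4 are highest at P1, and Acsm5, Acadsb and Abcd2 are highest at P56.

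The 5 acyl-CoA dehydrogenases, of which all but Acadsb open each round for chains of different length, split by member. Acadsb, which acts on short branched chains (chromosome 7, 131410601 to 131448944), had 17.4, 16.3 and 15.6 CPM at P1, 29.4, 21.8 and 21.9 at P14, and 54.1, 52.8 and 54.6 at P56. The 3 ages did not overlap. Acadsb rose by 0.57 ± 0.11 from P1 to P14, lost when the marker score was added (0.33, edgeR adjusted p = 0.128). From P14 to P56 it rose by 1.14 ± 0.11 (edgeR adjusted p = 3.29e-05), and over the span by 1.71 ± 0.11. Acadm, the medium-chain enzyme, rose over the span by 0.49 ± 0.08 (edgeR adjusted p = 0.000305), with levels of 155 to 160 CPM at P1 and 206 to 246 at P56. Its step from P1 to P14, 0.24 ± 0.08, was lost without any 1 P1 library or without P14 replicate 2 or 3 (edgeR adjusted p = 0.0501 to 0.0715), with the marker score (0.161) and with library totals (0.10, adjusted p = 0.326). The step from P14 to P56, 0.25 ± 0.08, was lost without P56 replicate 1 (0.17, edgeR adjusted p = 0.0626), with the marker score (0.224), with library totals (0.15, adjusted p = 0.169) and in the fit of the P14 and P56 libraries alone (adjusted p = 0.0538).

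Acadvl, the very-long-chain dehydrogenase of the inner membrane (chromosome 11, 70010183 to 70015411), had 51.0, 49.5 and 58.1 CPM at P1, 56.2, 74.0 and 76.5 at P14, and 35.3, 38.9 and 35.6 at P56. The P56 libraries lay below all others. It fell by 0.91 ± 0.12 from P14 to P56 and by 0.53 ± 0.12 over the span (edgeR adjusted p = 0.000147 and 0.0025). Its rise from P1 to P14 (0.38 ± 0.11, edgeR adjusted p = 0.0169) was lost without P1 replicate 1 or 2 or P14 replicate 2 or 3 (0.0549 to 0.067) and with library totals (0.24, adjusted p = 0.0617), and was 0.58 with the marker score. Of its exon bases, 42.9% are shared with Dvl2 on the opposite strand, so its values are uncertain. Acadl fell over the span by 0.46 ± 0.08 (edgeR adjusted p = 0.000892), and its fall of 0.24 ± 0.08 from P1 to P14 was lost without any 1 P1 library or without P14 replicate 1 or 2 (0.0515 to 0.115). Acads, the short-chain enzyme, fell by 0.48 ± 0.12 over the span (edgeR adjusted p = 0.00476). Its fall of 0.39 ± 0.12 from P14 to P56 was lost with the marker score (0.415) and without P14 replicate 2, P56 replicate 2 or P56 replicate 3 (0.0635 to 0.0691).

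Hadha and Hadhb encode the α and β chains of the mitochondrial trifunctional protein, which carries out the last 3 steps on long chains, and their RefSeq start sites lie on either side of the stretch printed above. The gene annotation used for the coordinates given next differs, and puts the 5′ end of Hadha inside that stretch. Hadha (chromosome 5, 30118304 to 30155162, minus strand) had 331, 335 and 347 CPM at P1, 231.5, 250 and 273 at P14, and 287, 224 and 221 at P56. Its P1 libraries lay above all others. Hadha fell by 0.43 ± 0.10 from P1 to P14 and by 0.47 ± 0.10 over the span (edgeR adjusted p = 0.00572 and 0.00261). Hadhb (30155248 to 30184593, plus strand) had 241, 281 and 269 CPM at P1, 212, 201.5 and 242 at P14, and 340.0, 274 and 265 at P56. From P14 to P56 it rose by 0.42 ± 0.11 (edgeR adjusted p = 0.00768), lost when the marker score was added (0.48, adjusted p = 0.108), and P56 against P1 did not pass (0.241). The ratio of Hadhb to Hadha counts within a library was 0.729 to 0.838 at P1, 0.806 to 0.915 at P14, then 1.19 to 1.22 at P56. The P56 ratios lay above all others, and P1 and P14 overlapped.

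Hadh, the 3-hydroxyacyl-CoA dehydrogenase of shorter chains, rose by 0.43 ± 0.11 from P1 to P14 and by 0.54 ± 0.11 over the span (edgeR adjusted p = 0.00655 and 0.00139). Acaa2, the matrix thiolase, had 122 to 123 CPM at P1, 91.2 to 104 at P14, and 103, 62.0 and 58.6 at P56. Acaa2 fell over the span by 0.71 ± 0.18 (edgeR adjusted p = 0.00613). Neither single interval passed, and without P56 replicate 1 both falls did, at −0.32 and −0.70 (adjusted p = 0.0016 and 7.86e-05).

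Of the electron path, Etfa, the α subunit of the electron transfer flavoprotein (chromosome 9, 55454508 to 55512243), had 253, 263 and 262 CPM at P1, 291, 279 and 315 at P14, and 462, 454 and 434.5 at P56. The ages did not overlap. Etfa rose by 0.61 ± 0.06 from P14 to P56 and by 0.79 ± 0.06 over the span (edgeR adjusted p = 3.31e-05 and 1.82e-06). The step from P1 to P14 (0.19 ± 0.06, edgeR adjusted p = 0.0225) was lost with library totals (0.05, adjusted p = 0.53), with the marker score (0.0861) and without P1 replicate 1 (0.0816), 2 (0.0518) or 3 (0.0506) or P14 replicate 3 (0.0825). Etfdh, the dehydrogenase that hands these electrons to ubiquinone, had 101 to 109 CPM at P1, 84.2 to 93.8 at P14, then 93.3 to 112 at P56. Its fall of 0.25 ± 0.08 from P1 to P14 (edgeR adjusted p = 0.0207) was lost without P1 replicate 1 or 3 or P14 replicate 2 (0.0592 to 0.0793). The ratio of Etfa to Etfdh counts was 2.38 to 2.59, 3.29 to 3.36 and 4.14 to 4.83 at the 3 ages, with no overlap. These 3 ratios were chosen after the values had been seen and are given as descriptions.

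**Figure D3:**
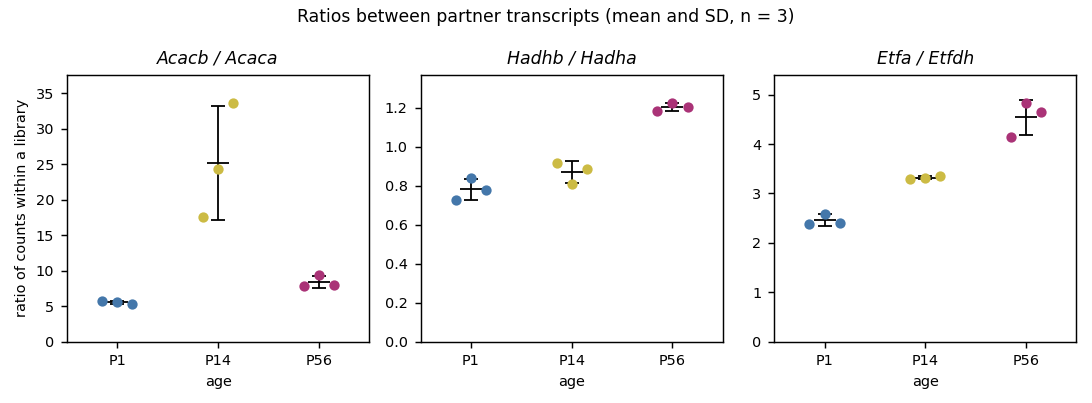
Points are the ratio of the counts of partner genes in single libraries at P1, P14 and P56, with mean and SD of 3 libraries, on linear axes from 0. Acacb/Acaca peaks at P14 (17.6 to 33.6), Hadhb/Hadha is highest at P56 (1.19 to 1.22), and Etfa/Etfdh is higher at each later age.

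Isomerases and reductases bring the double bonds of unsaturated fatty acids into the cycle. Of these 5 members none rose and 2 fell over the span, where 30.9% and 31.7% of all genes did. Ech1, a dienoyl-CoA isomerase, had 42.8 to 46.7 CPM at P1, 60.7 to 99.1 at P14, then 47.2 to 55.3 at P56. It rose by 0.84 ± 0.15 from P1 to P14 and fell by 0.63 ± 0.15 from P14 to P56 (edgeR adjusted p = 0.000995 and 0.00479). Once the marker score was added the changes were 1.29 and −1.26. Eci2, an enoyl-CoA isomerase, fell in both intervals, by 0.37 ± 0.06 and 0.33 ± 0.06, the second lost with the marker score (edgeR adjusted p = 0.333), and by 0.70 ± 0.06 over the span. Eci1, its mitochondrial counterpart, fell by 0.58 ± 0.11 from P14 to P56 and by 0.44 ± 0.11 over the span. Decr1 had 91.5 to 103 CPM at P1 and 105, 72.2 and 68.1 at P56. It passed in none of the 3 comparisons, and without P56 replicate 1 it did for P56 against P14 (−0.44, edgeR adjusted p = 0.000974) and P56 against P1 (−0.45, 0.000532). Decr2, the peroxisomal reductase, ranged from 6.49 to 9.15 CPM over the 9 libraries.

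Ucp3, a carrier of the inner mitochondrial membrane that is raised by fatty acids (chromosome 7, 100472990 to 100486432), peaked at P14. Its level was 25.2, 27.2 and 22.4 CPM at P1, 40.5, 52.3 and 68.1 at P14, and 30.0, 15.5 and 15.1 at P56. The P14 libraries lay above both other ages, and P56 replicate 1 lay above P1. Ucp3 rose by 1.10 ± 0.27 and then fell by 1.41 ± 0.27 (edgeR adjusted p = 0.00575 and 0.00163), and the changes differed by −2.51 ± 0.44 (0.00133). P56 against P1 did not pass (edgeR adjusted p = 0.344), and without P56 replicate 1 it was −0.70 ± 0.19 (0.0115). Acot2, a mitochondrial thioesterase that releases free fatty acid (chromosome 12, 83987861 to 83993873), had 9.38, 9.72 and 11.6 CPM at P1, 5.52, 5.79 and 5.46 at P14, and 2.17, 1.38 and 1.02 at P56. The ages did not overlap. Acot2 fell by 0.87 ± 0.20, then by 1.87 ± 0.23, and by 2.74 ± 0.23 over the span (edgeR adjusted p = 0.00507, 0.000115 and 3.46e-06). Once the marker score was added, the 3 falls were −1.36, −1.23 and −2.59. Its close copy Acot1 fell as well, by 4.89 ± 0.31 over the span, so reads may have been split between them and both values are uncertain. Acot13, a thioesterase found in cytosol and at mitochondria, rose in each comparison, by 0.35 ± 0.06, 0.44 ± 0.06 and 0.80 ± 0.06, the second lost with the marker score (edgeR adjusted p = 0.0624).

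Of 7 peroxisomal members, 4 rose over the span and none fell by edgeR's test, where 30.9% and 31.7% of all genes did. Abcd2, an ABC transporter that brings very long chains into the peroxisome (chromosome 15, 91145871 to 91191799), had 3.37, 2.80 and 3.24 CPM at P1, 9.05, 7.16 and 9.19 at P14, and 12.8, 10.3 and 11.4 at P56. The ages did not overlap. It rose by 1.43 ± 0.14 from P1 to P14 and by 1.87 ± 0.14 over the span (edgeR adjusted p = 2.15e-05 and 1.49e-06). Its rise of 0.44 ± 0.13 between P14 and P56 (edgeR adjusted p = 0.0161) was lost with the marker score (0.0983), with library totals (0.0887), without P14 replicate 2 (0.0601) and without P56 replicate 1 (0.0571). Abcd3, a transporter of branched and other chains, rose by 0.49 ± 0.07 over the span, with 166 to 178 CPM at P1 and 232 to 259 at P56 (edgeR adjusted p = 0.000153). Its rises in the single intervals, 0.22 ± 0.07 and 0.27 ± 0.07, were both lost with the marker score (0.0714 and 0.306) and with library totals (0.09, adjusted p = 0.338, and 0.16, 0.0861), and the first also without P1 replicate 1 (0.0781) or P14 replicate 3 (0.0695).

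Hsd17b4, the bifunctional protein of the hydration and dehydrogenation steps in peroxisomes (chromosome 18, 50128201 to 50196269), had 93.3, 95.2 and 98.3 CPM at P1, 105, 99.6 and 112 at P14, and 177, 143 and 133.5 at P56. Each age lay above the one before. The step from P1 to P14 did not pass (edgeR adjusted p = 0.24). Hsd17b4 rose by 0.52 ± 0.10 from P14 to P56 and by 0.66 ± 0.10 over the span (edgeR adjusted p = 0.0014 and 0.000202). Acaa1a, a peroxisomal thiolase, rose by 0.89 ± 0.12, fell by 0.40 ± 0.11 (−0.91 with the marker score) and ended 0.49 ± 0.12 above P1 (edgeR adjusted p = 0.000145, 0.0133 and 0.004). Pex5, the receptor that imports most peroxisomal enzymes, fell by 0.44 ± 0.10 from P14 to P56 (edgeR adjusted p = 0.00419), lost with the marker score (0.353). Its rise of 0.28 ± 0.10 from P1 to P14 was lost without any 1 P1 library or without P14 replicate 2 or 3 (edgeR adjusted p = 0.0753 to 0.0945), with the marker score (0.14, adjusted p = 0.499) and with library totals (0.14, 0.302). Acox3, an acyl-CoA oxidase, fell by 0.25 ± 0.08 from P14 to P56 (edgeR adjusted p = 0.0203), lost without P14 replicate 2 (0.0556), P56 replicate 1 (0.0547) or P56 replicate 3 (0.063), or once the marker score was added (0.0718).

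Set side by side by compartment, mitochondrial members were split over the span while the peroxisomal changes that passed over the span were all upward. From P1 to P56, 6 of 18 mitochondrial members rose and 8 fell, and 4 of 7 peroxisomal members rose and none fell, where 30.9% and 31.7% of all genes did. Of the 4 members found in both compartments 3 fell (Crat, Eci2 and Mlycd), and of the 6 in cytosol, reticulum or outer membrane 2 rose and 3 fell. The median log2 change over the span was −0.27 for mitochondrial and 0.49 for peroxisomal members, a difference of −0.76, with −0.03 over all genes. The peroxisomal members include the transporters Abcd2 and Abcd3, which both rose, and the import receptor Pex5. The peroxisomal enzymes changed by −0.235 (Decr2), −0.08 (Acox3), 0.49 (Acaa1a) and 0.66 (Hsd17b4), and of these Acaa1a and Hsd17b4 passed. Cpt1a, an outer-membrane enzyme, was counted as mitochondrial. Of the 17 mitochondrial members without it 6 rose and 7 fell, with a median of −0.23 and a difference of −0.72, a count made after the values had been seen. The difference was −0.11 for P14 against P1 (−0.17 without P14 replicate 3) and −0.09 for P56 against P14, and the second turned to 0.30 after adding the marker score and to 0.01 without P56 replicate 2. Without Cpt1a these differences were −0.082 and −0.007. It was −0.91 over the span without P56 replicate 1, −0.58 without P56 replicate 3 and −0.58 when the marker score was added. Over the same span the order of the compartments was the reverse in the wider lists described below. There the median was 0.91 for other mitochondrial genes and 0.39 for other peroxisomal genes, a difference of 0.52, so the order among the members depended on which genes they are. The groups were not drawn alike. The wider mitochondrial list counts the synthetases Acsl1 and Acsl6, while the members Acsl3, Acsl4 and Acsl5 were placed in cytosol, reticulum or outer membrane. That list also counts genes that do not shorten fatty acids, such as Acss1 and Pcca. No test was made of a difference between the compartments, because the members were chosen with results known.

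Summed over members, mitochondrial transcripts held 2086 to 2183 CPM at P1, 1966 to 2304 at P14, then 2038 to 2477 at P56, ranges that overlap. Peroxisomal transcripts held 328 to 341 CPM, 380.1 to 424 and 437.5 to 511, with no overlap. Abcd3 and Hsd17b4 made up most of that sum, and without them the other 5 peroxisomal members summed to 64.0 to 68.5 CPM at P1, 83.6 to 92.6 at P14, then 72.0 to 78.1 at P56, highest at P14. The mean log2 CPM of mitochondrial members exceeded that of peroxisomal members by 1.22 to 1.36 at P1, 1.06 to 1.20 at P14, then 1.01 to 1.27 at P56, with an SD of 0.10 within ages. P56 replicate 1 gave the 1.27 and overlapped the P1 range, and P56 replicates 2 and 3 gave 1.01 and 1.04. These means weigh every member alike, and Acsm5, with 6 counts in all at P1, rose by 8.43 over the span. The mitochondrial mean went from 5.72 at P1 to 5.98 at P56, although the median log2 change of these members was −0.27. The difference was not computed without Acsm5, so its overlap between ages may rest on that gene. In P56 replicate 1 the median ratio to the mean of the other two was 1.21 over mitochondrial and 1.10 over peroxisomal members. It reached 1.96 for Ucp3, 1.81 for Acot2, 1.71 for Acaa2 and 1.50 for Decr1.

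**Figure D4:**
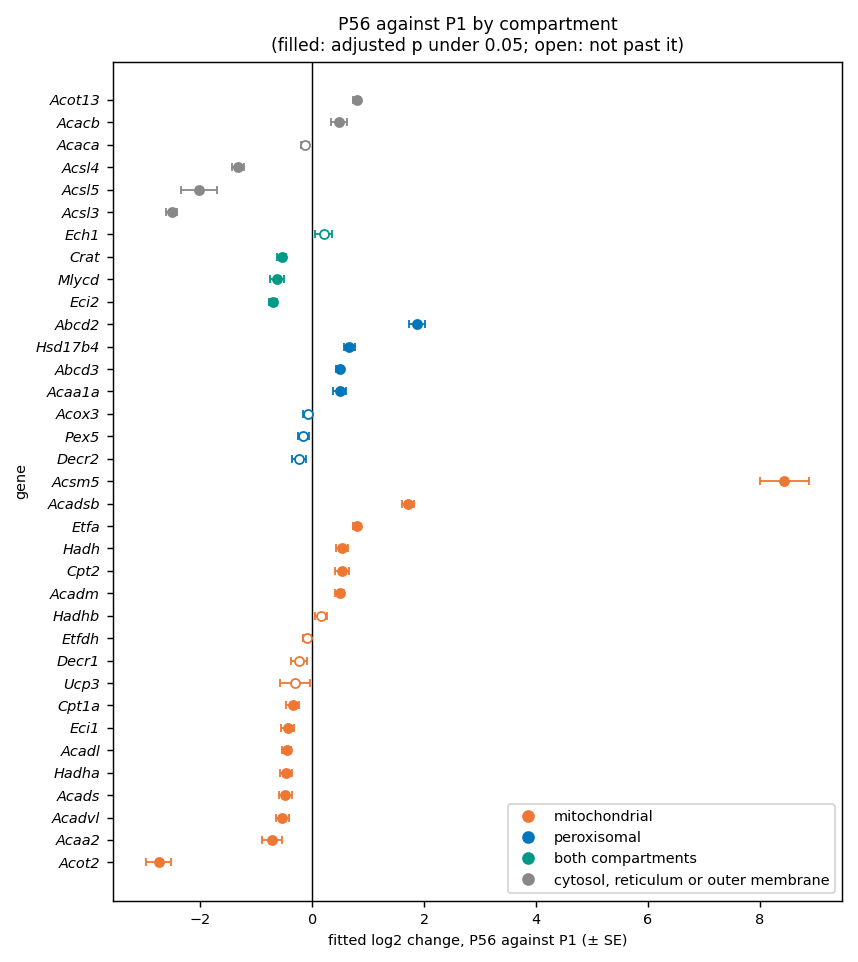
Fitted log2 change from P1 to P56 with its SE for each of the 35 members, coloured by compartment; filled points passed adjusted p under 0.05. The 4 peroxisomal members that passed (Abcd2, Hsd17b4, Acaa1a and Abcd3) lie above 0, and the mitochondrial members lie on both sides, from −2.74 for Acot2 to 8.43 for Acsm5.

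Members fell into several courses over the intervals, which share the P14 libraries. In both intervals 7 rose (Abcd2, Abcd3, Acadm, Acadsb, Acot13, Acsm5 and Etfa) and 3 fell (Acot2, Acsl3 and Eci2), where 7.74% and 7.16% of all genes did. A rise and then a fall was called for 6 (Acaa1a, Acadvl, Ech1, Mlycd, Pex5 and Ucp3), and the reverse for Acaca alone, where 10.9% and 8.91% of all genes did. Subtracting the earlier change from the later one gave a called difference above 0 for 7 members and below 0 for 12, where 24.1% and 26% of all genes were called. The difference was 2.86 ± 0.13 for Acaca, −1.47 ± 0.25 for Ech1 and −1.32 ± 0.22 for Mlycd (edgeR adjusted p = 1.41e-06, 0.00106 and 0.000874). The 7 positive calls became 4 without P14 replicate 2 and 4 on adding the marker score. Acsl5 turned from −2.07 to 1.23 when the marker score was added (edgeR adjusted p = 0.119) and Acot2 from −1.0 to 0.14 (0.888).

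**Figure D5:**
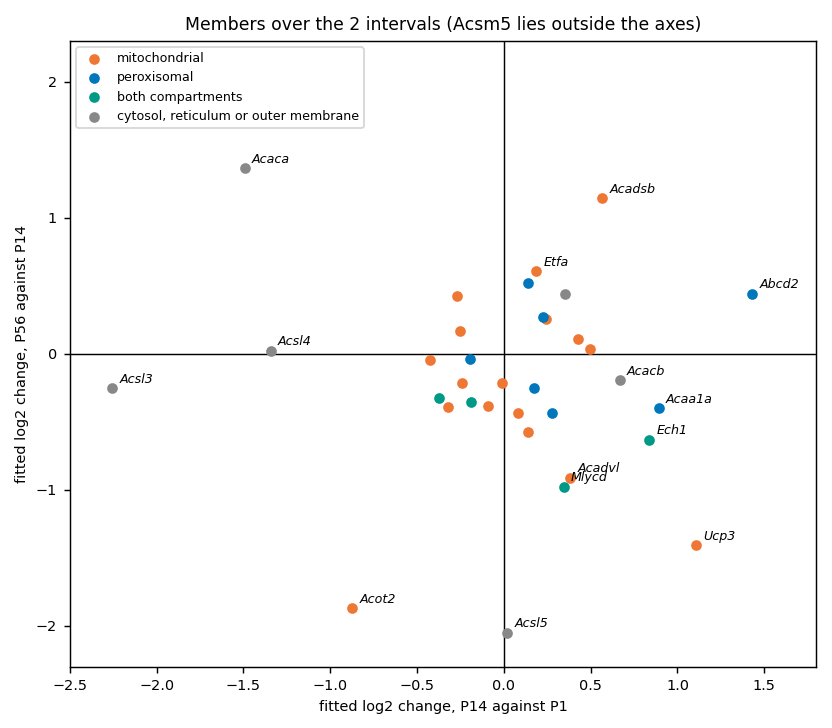
Each point is a member, with the fitted log2 change from P1 to P14 on the x axis and from P14 to P56 on the y axis, coloured by compartment; Acsm5 (4.83, 3.61) lies outside the axes. Acaca is alone at upper left with large changes, Ucp3 is at lower right, and most members lie within 1 log2 unit of 0 on both axes.

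Promoter windows were found in RefSeq for 29 of the 35 members. Crat, Decr1, Acaa2, Abcd2, Hsd17b4 and Acot13 had none in the table used. Motifs were searched on both strands. The estrogen-related receptor element TCAAGGTCA was in no member window and in 0.423% of all 32851 windows, and the PPAR and RXR repeat, a pair of AGGTCA units 1 base apart, in none and in 0.0396%. A single AGGTCA, which also ends the first element and makes up the repeat, was in the windows of 5 members (Acacb, Acadm, Acadvl, Cpt1a and Ucp3) and in 16.3% of all windows. Ucp3 held it at −149 and −44 from the start site. The NRF1 element, the palindrome of GCGCA and its reverse complement, was in the Etfdh window and in 0.971% of all. CCAAT was in the windows of 13 members and in 37.4% of all windows. The Hadha and Hadhb shared stretch holds none of these. Median GC content was 61.0% over member windows and 52.7% over all.

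Other genes of the pathway and of linked pathways, listed by function, rose more often than they fell. The list of other mitochondrial genes of fatty acid oxidation also holds genes that do not shorten fatty acids, such as Acss1 and Pcca. Of its 22 genes tested, 16 rose and 3 fell over the span, where 30.9% and 31.7% of all genes did. Their median log2 change was 0.91. Acss1, which activates acetate in the matrix, went from 19.0 to 182 to 308 CPM on average (4.01 ± 0.15 over the span), and the long-chain synthetase Acsl6 from 0.265 to 1.18 to 17.1 CPM (6.01 ± 0.31). Pcca, a propionyl-CoA carboxylase subunit, rose by 1.21 ± 0.06 from P14 to P56. Hsd17b10, a dehydrogenase of branched chains, fell by 0.69 ± 0.15 from P1 to P14. From P1 to P14, 14 rose and 3 fell (28.4% and 27.5% of all genes), and from P14 to P56, 13 rose and 1 fell (27.5% and 28.5%). All calls named here passed edgeR's test.

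Of 31 other peroxisomal genes, 22 rose and 2 fell over the span (30.9% and 31.7% of all genes), with a median log2 change of 0.39. From P1 to P14, 14 rose and 5 fell (28.4% and 27.5%), and from P14 to P56, 20 rose and 2 fell (27.5% and 28.5%). Pxmp2, a channel of the peroxisomal membrane, rose by 0.79 ± 0.08 and 1.46 ± 0.08 in turn, and Nudt7, a peroxisomal CoA hydrolase, by 0.87 ± 0.06 from P1 to P14 and 1.50 ± 0.06 over the span. Pex2, an import gene, fell from P1 to P14 by 0.49 ± 0.08. The falls over the span were those of Acot8 (−0.28 ± 0.10), a thioesterase, and Agps (−0.21 ± 0.06), an enzyme of ether lipid synthesis.

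Of 13 regulators of these genes, 7 rose and 1 fell from P1 to P14 (28.4% and 27.5% of all genes). From P14 to P56, 5 rose and 4 fell (27.5% and 28.5%), and over the span 7 rose and 2 fell (30.9% and 31.7%). Pparg, a fatty acid-sensing nuclear receptor, went from 2.37 to 18.6 to 92.5 CPM on average (5.28 ± 0.22 over the span), and its partner Rxrg from 2.74 to 37.4 to 55.3 CPM (4.33 ± 0.18). Esrrb, an estrogen-related receptor, rose by 1.24 ± 0.18 from P14 to P56, while the coactivator Ppargc1b fell by 0.73 ± 0.15 and Esrra by 0.69 ± 0.18. Tfam, a factor for mitochondrial DNA, fell by 0.33 ± 0.09 from P1 to P14. Rxra (−0.36 ± 0.14) and Nrf1 (−0.35 ± 0.06) fell over the span. The lists were set beside the members as counts, with no test between lists.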

How the data were processed

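The authors deposited 1 table of integer read counts per gene and library. The submitters' processing notes name STAR 2.4.0g1, featureCounts 1.4.2, bcl2fastq 2.17.1.14 and build GRCm38, with no further settings. The counted feature (exon or whole gene) and strand setting were not given in the sources used, so overlapping genes, close copies and levels per kb of exon are uncertain. Groups were taken from the labels. The smallest mean count of a gene was 10. Counts were analysed in edgeR 4.0.16 (R 4.3.3): filterByExpr removed 7 genes and left 15817, library sizes were TMM-scaled, and 1 quasi-likelihood fit (glmQLFit, glmQLFTest) covered the 9 libraries together, with a term for age alone (common dispersion 0.0192, biological coefficient of variation 13.9%). P-values were Benjamini-Hochberg adjusted over all genes, threshold 0.05. Log2 changes are fitted values ± SE; levels are CPM, and marker scores use a prior count of 2. The scripts were tested on simulated counts.

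The members and lists were chosen with earlier results of these data known. Values in every library are given for members past the threshold with a log2 change of at least 1, and for Cpt1a, Acadvl, Hadha and Hsd17b4; Acacb, Hadhb, Etfa and other members shown so were chosen after their values were seen. From each pathway list up to 2 genes per direction and comparison are named, those with the largest change; a gene that this rule selects is not reported here. Gene positions and exon lengths are from GENCODE M21 (GRCm38), in which all 35 members were found; 10 share exon bases with another gene, and 1, Acadvl, over 10% of them. Alternatives were DESeq2 1.42.0 size factors, library totals, the DESeq2 Wald test, no filter, a mean CPM of at least 1, fits of the ages compared alone, a replicate block, the marker score as covariate, and leaving out each library. P-values measure the spread between libraries of pooled hearts.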

Additional observations from a re-analysis of the deposited data

How the results depend on the processing

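The rises from P1 to P14 numbered 16, and 9 with library totals without TMM scaling (which shifts the median of all genes to −0.13, −0.13 and −0.27 in the 3 comparisons), 10 with the marker score of other cell types, and 10 to 17 without 1 library in turn. For P56 against P14, the 25 calls (10 rises, 15 falls) became 15 (6 and 9) with the marker score. The positive differences between the intervals, 7, became 4 with the marker score and 4 to 7 without 1 library. The mitochondrial minus peroxisomal median for P56 against P14, −0.092, became 0.301 with the marker score and −0.225 to 0.009 without 1 library (0.009 without P56 replicate 2). Over the span, −0.757 became −0.575 with the marker score and −0.907 to −0.578 without 1 library (−0.585 without P56 replicate 2). Among called members, the direction turned in the difference between the intervals for Acsl5 (1.23) and Acot2 (0.14), both with the marker score. The cause was not tested. The other counts stayed within 1.5 times their values.

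No pairing by replicate number was assumed in the main fit. Deviations of same-numbered libraries correlated at −0.219 to 0.493. Between P14 and P56 the correlation was 0.493 for replicate 1, 0.008 for replicate 2 and 0.364 for replicate 3. Pairs with P1 gave −0.219 to 0.1. Whether some P14 and P56 libraries share a batch was not tested. With the replicate block, 92 of 94 calls of members held; Mlycd for P14 against P1 (0.34, edgeR adjusted p = 0.0567) and the Acot2 difference between the intervals (−1.01, 0.0504) did not. The counts were then 23, 25 and 26 for the 3 comparisons. Depth limits Acsm5 at P1, with 6 counts in all. The DESeq2 Wald test and fits of the ages compared alone were run for the 3 age comparisons, not for the difference between the intervals.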

Other observations

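Genes outside the list, chosen after their values were seen, also differed among the P56 libraries. Pdk4, a kinase that shuts off pyruvate dehydrogenase, had 52.8 CPM in P56 replicate 1 and 16.1 and 12.3 in the other two, a ratio to their mean of 3.71. Angptl4, an inhibitor of lipoprotein lipase, had a ratio of 1.84, Plin2, a lipid droplet coat protein, 1.43, and Cidea, another droplet protein, 1.38. Plin5, also a droplet coat protein, had a ratio of 1.08. Because the genes were picked on these values, they are given without a test.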
